A study of Mus musculus with 17 samples.

Results

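The genes of the colony-stimulating factors and of their receptor chains were followed across mouse macrophages in which AP-1 transcription factors had been targeted or TLR4 had been activated. The group was set by gene symbol alone and holds 9 of the 24453 gene models with deposited values, with all 9 symbols found in the table. They are the ligand genes Csf1, Csf2 and Csf3, the receptor genes Csf1r, Csf2ra, Csf2rb, Csf2rb2 and Csf3r, and Il3ra, the alpha chain of the interleukin-3 receptor. Immortalized bone marrow-derived macrophages (iBMDMs) were C57Bl/6EiJ cells labelled male that carry BRAF(V600E) and Myc, at passage 3 to 8, all given vehicle. Cas9-expressing cells were infected with guide lentivirus and sorted, with no cloning step stated, giving a control with the genotype label Scramble, whose titles carry zsGreen, and cells labelled Atf3KO, JunKO (targeting Jun) and JunDKO (targeting Jund), with 2 polyA RNA-seq libraries each. Thioglycollate-elicited macrophages (TGEMs) are primary cells recruited to the peritoneum of unmodified mice, labelled male, and received vehicle or Kdo2 lipid A (KLA), an agonist of TLR4, for 1 h. For TGEMs there was 1 library of each treatment from C57Bl/6EiJ mice, and from Balb/cJ mice 1 with vehicle and 2 with KLA. The 4 GRO-seq samples of the series were not analysed here. The iBMDMs were grown with L-cell conditioned medium, a source of CSF1, and TGEMs in DMEM with serum and antibiotics, so medium and cell type cannot be told apart.

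Colony-stimulating factors are secreted cytokines that keep myeloid cells alive and direct their growth and differentiation. CSF1 acts through CSF1R, a receptor tyrosine kinase that macrophages depend on. CSF2, also called GM-CSF, binds an alpha chain (CSF2RA) that pairs with a signalling beta chain (CSF2RB) and activates JAK2 and STAT5. The mouse has a second beta chain gene, Csf2rb2, whose product serves the interleukin-3 receptor together with IL3RA. CSF3, also called G-CSF, acts through CSF3R and is best known for driving neutrophil production.

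Values are RPKM, reads scaled by exon length and by the depth of each library, so that levels of different genes can be compared per length. Recovered depth spanned 1553296 reads in JunDKO replicate 1 to 18444446 reads in JunDKO replicate 2, so low genes were better resolved in some libraries than in others. Of the targeted genes, Atf3 was higher in the libraries labelled Atf3KO, at 154 and 169 RPKM, where Scramble had 80.7 and 77.4 (log2 fold change 1.02 ± 0.16, limma-trend adjusted p = 0.00237). Jund stood at 6.94 and 6.07 RPKM with the JunDKO label, below the other 6 iBMDM libraries, with 9.19 and 8.33 in Scramble (log2 fold change -0.38 ± 0.49, adjusted p = 0.654). Jun stood at 26.2 and 20.5 RPKM with the JunKO label against 17.6 and 18.5 in Scramble. A gene edited by guides can keep its transcript, so these levels do not check the edit, and groups are named by label throughout. Protein was checked by western blot in the study, which was not analysed here. The libraries labelled Atf3KO also stood apart in having reads in 10425 and 10631 models, against 11884 to 12533 in the other 6 iBMDM libraries. All TGEM libraries held Xist (19.2 to 28.1 RPKM) and had Ddx3y at 0, against their label of male. All 7 macrophage markers, among them Adgre1 and Cd68, were above 1 RPKM in both kinds of cell.

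The 250 bases upstream of the RefSeq start (GRCm38.p6, the patch release of mm10) are shown for 4 genes: Csf1, the one ligand gene expressed in every library, and the receptor genes Csf2ra, Csf2rb2 and Csf3r, which were called between iBMDM groups. Of the 9 genes, 6 had an entry among the RefSeq promoters, and Csf3, Csf2rb and Csf1r did not. Capitals mark matches on either strand to the kappaB consensus in Csf1, to the full CRE form of the AP-1 and ATF motif (TGACGTCA) in Csf2ra, and to a PU.1 core (GAGGAA) in Csf2ra, Csf2rb2 and Csf3r.
Csf1 (chr3:107760470-107760719, minus strand): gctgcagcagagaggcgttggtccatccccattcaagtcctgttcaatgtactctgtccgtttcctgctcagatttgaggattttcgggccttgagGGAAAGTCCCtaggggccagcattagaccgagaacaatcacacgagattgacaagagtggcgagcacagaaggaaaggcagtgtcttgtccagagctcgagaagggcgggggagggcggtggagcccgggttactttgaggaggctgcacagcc
Csf2ra (chr19:61228419-61228668, minus strand): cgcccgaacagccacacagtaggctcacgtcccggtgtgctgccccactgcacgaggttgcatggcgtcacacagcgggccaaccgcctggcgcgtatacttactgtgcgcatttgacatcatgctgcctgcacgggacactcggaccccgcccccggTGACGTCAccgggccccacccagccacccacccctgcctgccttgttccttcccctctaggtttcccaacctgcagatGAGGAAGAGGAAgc
Csf2rb2 (chr15:78305722-78305971, minus strand): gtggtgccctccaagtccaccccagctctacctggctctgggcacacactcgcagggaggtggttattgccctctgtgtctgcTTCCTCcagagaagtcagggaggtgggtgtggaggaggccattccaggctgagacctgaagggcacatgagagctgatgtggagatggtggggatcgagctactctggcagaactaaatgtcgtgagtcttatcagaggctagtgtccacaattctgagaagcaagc
Csf3r (chr4:126024409-126024658, plus strand): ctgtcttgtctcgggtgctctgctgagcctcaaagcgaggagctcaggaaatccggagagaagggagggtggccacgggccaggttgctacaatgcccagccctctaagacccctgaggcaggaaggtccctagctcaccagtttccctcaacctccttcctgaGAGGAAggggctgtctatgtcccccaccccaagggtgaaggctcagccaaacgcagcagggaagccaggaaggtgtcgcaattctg
The kappaB match of Csf1 begins 154 bases upstream of the start, and 3.9% of 32851 promoter windows of this length held such a match. The CRE of Csf2ra begins 92 bases upstream and has no counterpart in the other 5 windows, while 1.5% of all windows held one. The adjoining pair of PU.1 cores of Csf2ra lies 14 and 8 bases upstream, and those of Csf2rb2 and Csf3r lie 167 and 86 bases upstream, with a core in 23.3% of all windows. None of the 6 windows held the TRE form of the AP-1 motif (TGANTCA), which 6.7% of all windows held, and the window of Il3ra held none of the 4 motifs. The same was true of the window of Csf2, but its RefSeq start may lie upstream of the start most often used, so that window may not be its promoter. These are matches of letters, and binding was not measured here.

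The receptor genes dominated the family in both kinds of macrophage. In Scramble iBMDMs Csf1r stood highest, at 474 and 350 RPKM. Csf2ra followed at 105 and 62.4 RPKM, then Csf2rb2 at 53.3 and 56.6 and Csf2rb at 46.7 and 38.0, and these 3 neighbours lay close together, with replicate ranges that did not overlap. Csf1 (6.35 and 4.21 RPKM) and Csf3r (2.53 and 3.31) were far lower. Csf2 and Il3ra had 0 reads and Csf3 had 1 read in the 2 Scramble libraries. In the C57Bl/6EiJ vehicle TGEM library the order was Csf2rb (233 RPKM), Csf2rb2 (209), Csf2ra (182), Csf1r (173) and Il3ra (122), then Csf3r (18.7) and Csf1 (2.84), with Csf2 and Csf3 at 0. With 1 library, neighbours in that order cannot be set against a replicate spread.

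**Figure D1:**
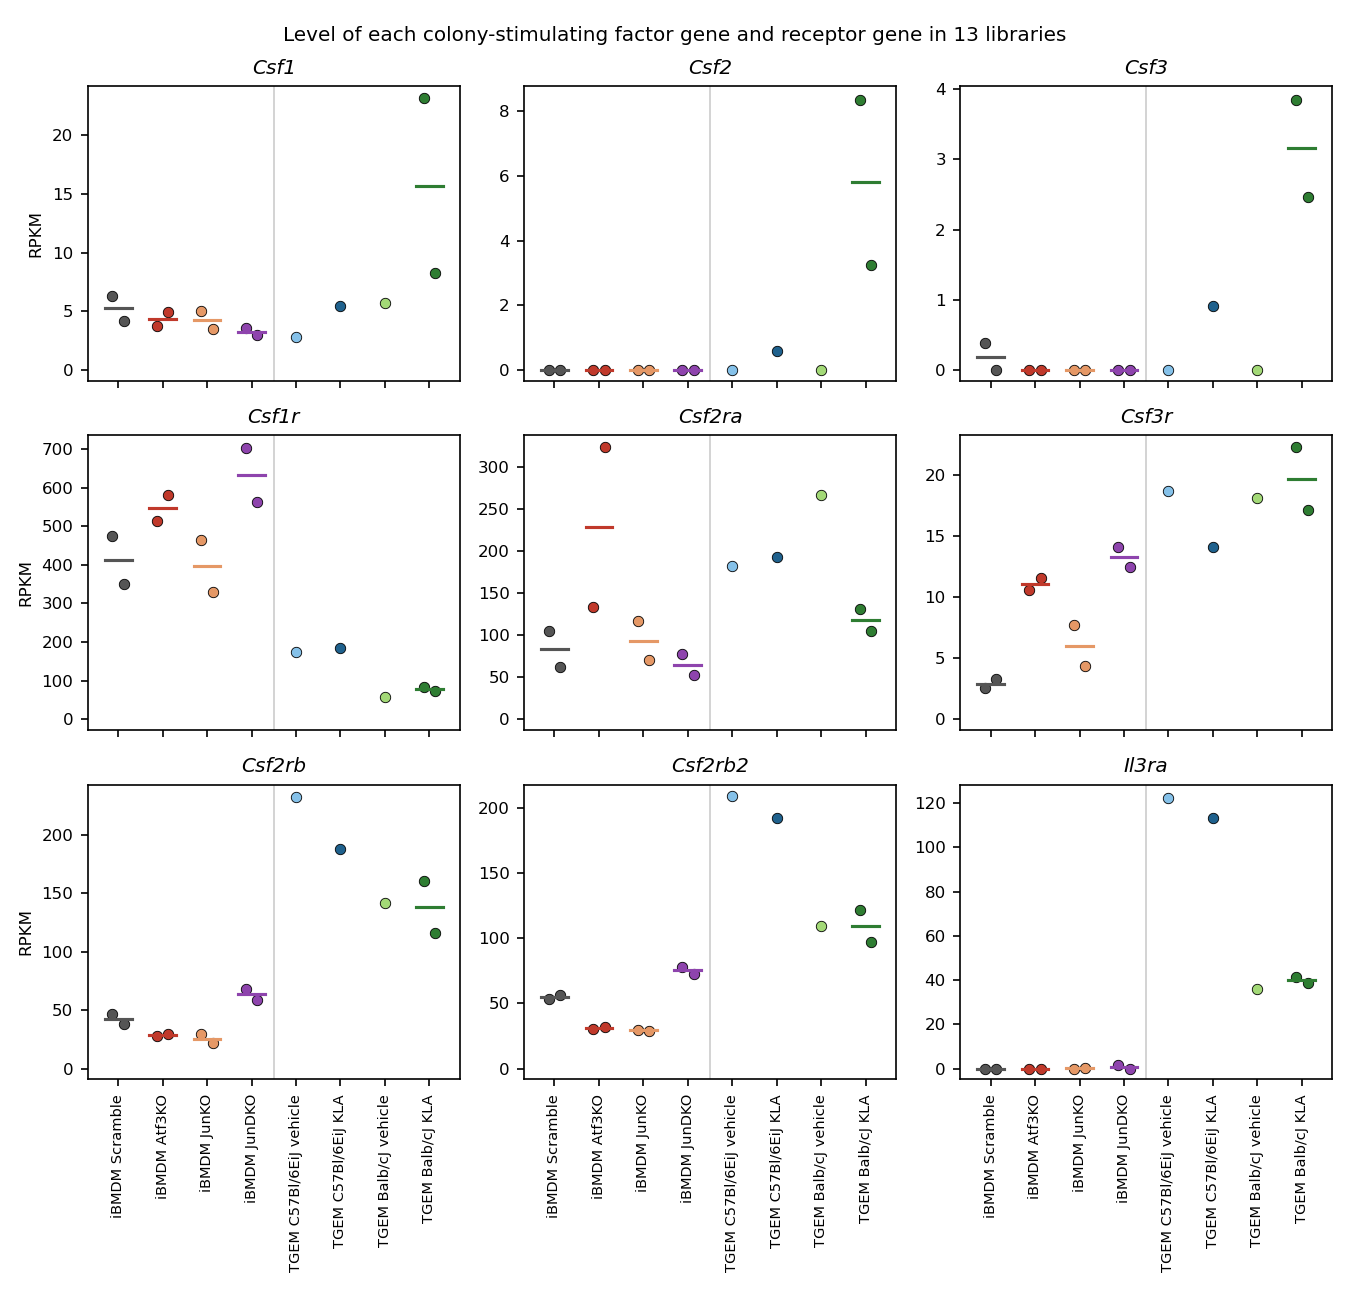
RPKM (linear axis, a separate scale for each gene) of the 9 genes in each library, by group, with iBMDM groups left of the grey line and TGEM groups right of it. Points are libraries and horizontal lines are means of groups with 2 libraries. Il3ra sits at or near 0 in iBMDMs and between 35.9 and 122 in TGEMs, while Csf1r is higher in all 8 iBMDM libraries than in any TGEM library.

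The ligand genes were low in vehicle TGEMs, at 5.74 RPKM or less, and none met the test for a change with KLA. Csf1 (chr3:107741048-107760469, minus strand) encodes the ligand of CSF1R. It measured 2.84 RPKM with vehicle and 5.46 with KLA in C57Bl/6EiJ TGEMs, and 5.74 with vehicle against 23.2 and 8.25 with KLA in Balb/cJ TGEMs. Each KLA library was above its own strain's vehicle library, by 1.92 times in C57Bl/6EiJ and by 4.04 and 1.44 times in Balb/cJ, but the C57Bl/6EiJ KLA library lay below the Balb/cJ vehicle library. Between the 2 KLA libraries of Balb/cJ, which carry different label dates, Csf1 differed more than between treatments in C57Bl/6EiJ.

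Csf2 (chr11:54247270-54249899, minus strand), the GM-CSF gene, had no reads in either vehicle TGEM library. With KLA it measured 0.599 RPKM (2 reads) in C57Bl/6EiJ and 8.36 and 3.26 RPKM in Balb/cJ, a total of 172 reads. Against the 0.212 RPKM that 3 reads over both vehicle libraries would give, the mean of the KLA libraries (4.07 RPKM) was at least 19.2-fold higher. Balb/cJ KLA replicate 1 held 148 of the reads, and without it the bound was at least 9.07-fold. Without the C57Bl/6EiJ vehicle library, which sets most of the floor, it was at least 3.26-fold, and within Balb/cJ, where the vehicle library is shallow, at least 4.66-fold. The 2 reads of the C57Bl/6EiJ KLA library lie under the floor of 3. No Csf2 read was found in any of the 8 iBMDM libraries, which allows a level of up to 0.0755 RPKM over the libraries together. Such intervals and limits cover counting error only, since reads are not independent molecules.

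Csf3 (chr11:98701313-98703629, plus strand), the G-CSF gene, was detected in the same libraries. It had no reads in the vehicle TGEM libraries and measured 0.907 RPKM with KLA in C57Bl/6EiJ and 3.85 and 2.47 in Balb/cJ. The mean of the KLA libraries, 2.41 RPKM from 116 reads, was at least 15.0-fold above the 0.161 RPKM that 3 reads over both vehicle libraries would give. Within Balb/cJ, which held 112 of these reads, the bound was at least 3.34-fold, and without the C57Bl/6EiJ vehicle library at least 2.55-fold. In iBMDMs a single read, in Scramble replicate 1, was the whole signal of the gene.

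**Figure D2:**
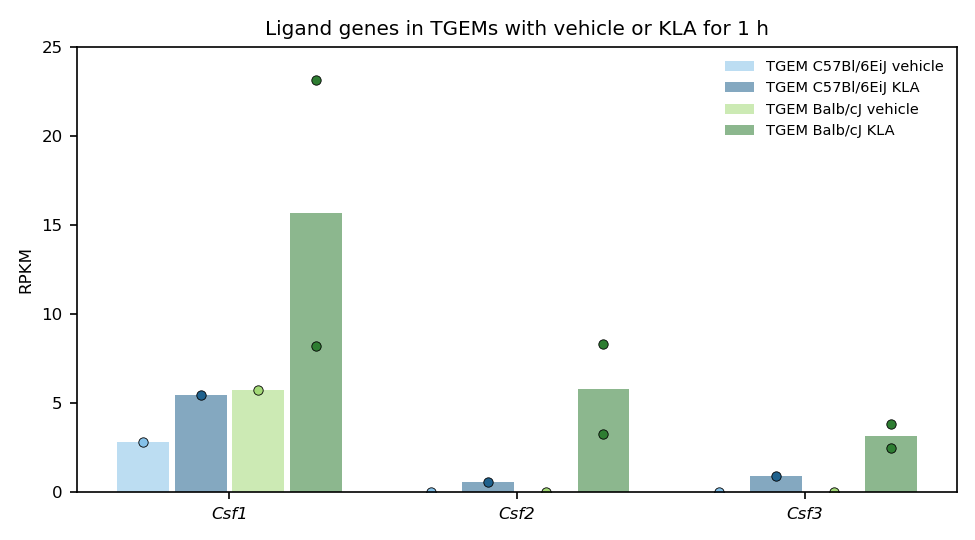
RPKM (linear axis from 0) of the 3 ligand genes in the 5 TGEM libraries. Bars are group means and points are libraries, with 1 library in each group except Balb/cJ KLA, which has 2. Csf2 and Csf3 are at 0 in both vehicle libraries and above 0 in all 3 KLA libraries.

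A call required an adjusted p under 0.05 (limma-trend on log2(RPKM + 1), Benjamini-Hochberg over all tested genes) and a change of at least 2-fold. With treatment and strain fitted over the 5 TGEM libraries, 0 of the 9 genes were called for KLA, against 1.53% of all 10357 tested genes. The log2 fold change over vehicle was 1.81 ± 0.55 for Csf2 (SE, adjusted p = 0.216), 1.56 ± 0.40 for Csf3 (adjusted p = 0.156) and 0.98 ± 0.41 for Csf1 (adjusted p = 0.329). At an unadjusted p under 0.05 there were 3 members, these ligand genes, and 15.0% of all genes, but Csf2 and Csf3 had reached the filter of 1 RPKM only through the KLA libraries, so nothing is read from that count. Limma-voom on the recovered reads called 0 as well. Whether the strains differed in their response to KLA was not tested, and any such difference adds to the error of this fit.

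The receptor genes showed no called change after 1 h of KLA. Their fitted log2 fold changes lay between -0.64 for Csf2ra (adjusted p = 0.421) and 0.26 for Csf1r (adjusted p = 0.66). The 95% interval of the Csf2ra difference ran from -1.46 to 0.18, which includes a fall of over 2-fold. Csf2ra measured 182 and 192 RPKM with vehicle and KLA in C57Bl/6EiJ but 266 with vehicle against 131 and 105 with KLA in Balb/cJ. Its level was thus lower with KLA in the Balb/cJ libraries and not in the C57Bl/6EiJ library. Csf1r, Csf2rb, Csf2rb2, Csf3r and Il3ra each had KLA values within 0.754 to 1.42 times their strain's vehicle value.

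Some genes listed for the pathway changed with KLA in the same libraries. Of 48 genes listed for the pathway, 39 were tested and 4 were higher and 0 lower, 10.3% of the list against 1.53% of all genes. The list was chosen with earlier results of these data known and holds general regulators of cytokine mRNA. Nothing is therefore read from that share. Socs3, which encodes a feedback inhibitor of cytokine receptors including CSF3R, rose from 4.45 to 307 RPKM in C57Bl/6EiJ and from 4.40 to 205 and 257 in Balb/cJ (log2 fold change 5.59 ± 0.27, adjusted p = 0.000196). Zfp36, whose protein binds AU-rich elements and destabilises cytokine mRNAs such as that of Csf2, rose by 4.37 ± 0.28 on the log2 scale (adjusted p = 0.00058). Zc3h12a, encoding an RNase that degrades cytokine mRNAs, rose by 2.98 ± 0.50 (adjusted p = 0.0348). Pim1, encoding a survival kinase induced by STAT5, rose by 2.66 ± 0.26 (adjusted p = 0.00297). Among the 19 kinases, adaptors and transcription factors, 0 were called, with a median log2 fold change of 0.04 beside -0.15 over all genes. The related ligand gene Il3 had no reads in any library, and Il34, whose product is the second ligand of CSF1R, reached at most 0.759 RPKM.

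Bulk libraries hold all cells of a dish, so more cells of a type and more RNA per cell cannot be told apart. Markers of fibroblasts or mesothelium (6 genes, all detected) summed to 46.6 and 71.7 RPKM in vehicle TGEMs and 34.4 to 59.7 in KLA TGEMs, with Dcn at 14.7 to 34.6. In iBMDMs the sum was at most 0.42, with Col1a1 and Pdgfra at 0. Within C57Bl/6EiJ TGEMs the sum was 46.6 with vehicle and 43.0 with KLA. Within Balb/cJ TGEMs it was 71.7 with vehicle and 59.7 and 34.4 in KLA replicates 1 and 2. Fibroblasts are a known source of CSF1, and their part in the Csf1 level was not tested.

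Csf1r and Il3ra differed between the strains. Csf1r (chr18:61105572-61131139, plus strand), the CSF1 receptor gene, measured 173 and 183 RPKM in the C57Bl/6EiJ libraries and 58.6, 83.1 and 72.3 in the Balb/cJ libraries, with no overlap. The log2 fold change of Balb/cJ over C57Bl/6EiJ was -1.37 ± 0.26 (limma-trend adjusted p = 0.0483). Il3ra (chr14:14346495-14355490, plus strand) measured 122 and 113 RPKM in C57Bl/6EiJ and 35.9, 41.4 and 38.9 in Balb/cJ, and its log2 fold change was -1.59 ± 0.25 (adjusted p = 0.0289). These 2 of 9 genes were called, against 2.31% of all genes. Csf2rb2, with 209 and 192 RPKM against 109, 122 and 97.4, did not overlap either but was not called (log2 fold change -0.86 ± 0.26, adjusted p = 0.133). Nor did Csf2rb, at 188 to 233 RPKM in C57Bl/6EiJ and 116 to 161 in Balb/cJ (-0.56 ± 0.28, adjusted p = 0.292), overlap between the strains. Csf1 lay in the opposite direction without overlap, at 2.84 and 5.46 RPKM in C57Bl/6EiJ and 5.74 to 23.2 in Balb/cJ (1.04 ± 0.41, adjusted p = 0.207). Csf2ra and Csf3r overlapped between the strains. How many of all genes lack overlap was not counted, and 21.4% of them had an unadjusted limma-trend p under 0.05. Nothing is therefore read from lack of overlap. None of the 39 pathway genes tested was called. Some macrophage markers lay in the direction of Csf1r and Il3ra, with Fcgr1 (-1.52 ± 0.31, adjusted p = 0.0535), Mertk (-1.44 ± 0.29, adjusted p = 0.0524), Adgre1 (-0.98 ± 0.25, adjusted p = 0.0898) and Itgam (-0.79 ± 0.29, adjusted p = 0.177) lower in every Balb/cJ library than in either C57Bl/6EiJ library. Lyz2 (0.20), Cd14 (0.08) and Cd68 (0.44) went the other way, and none of the 7 was called. Eosinophil markers summed to 2.67 and 4.15 RPKM in C57Bl/6EiJ and to 0.80 to 1.82 in Balb/cJ. Sums of neutrophil, mast cell or basophil, T cell, B cell, dendritic cell and fibroblast markers overlapped between the strains. The part of any of these cells in the strain differences was not tested.

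The calls for Csf1r and Il3ra are fragile. That of Csf1r was lost without any 1 of the 5 libraries (adjusted p = 0.055 to 0.317), and that of Il3ra without any except Balb/cJ KLA replicate 2 (adjusted p = 0.118 to 0.251 when lost), while both fold changes kept their sign. The fold changes of all genes in this comparison correlated with GC content (rho = -0.44 across genes), and the Il3ra model is 65.9% GC against a median of 49.3%. With the GC trend of each library removed, the log2 fold change was -1.23 for Csf1r (adjusted p = 0.068) and -0.83 for Il3ra (adjusted p = 0.176). Strain and label date, and the strain genome that Balb/cJ reads were aligned to, cannot be told apart here.

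Il3ra differed most between primary and immortalized cells. It measured 122 RPKM (1925 reads) in the C57Bl/6EiJ vehicle TGEM library and 0 in both Scramble libraries, at least 205-fold higher than the 0.597 RPKM that 3 reads over those libraries would give. Against either Scramble library alone the bound was at least 96.3-fold or 109-fold. Over all iBMDMs the gene had 5 reads, 4 of them in JunDKO replicate 1 and none in the deeper JunDKO replicate 2, against 3889 reads in TGEMs. The ratio of read rates was 737, with an exact 95% interval of 316 to 2272.

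The beta chain genes were also higher in TGEMs. The TGEM arm of this comparison is 1 library, assumed in the fit over all 13 libraries to vary like the groups of 2, so its p-values rest on the spread of other groups. Csf2rb (chr15:78325990-78351001, plus strand), the shared signalling chain, measured 233 RPKM in C57Bl/6EiJ vehicle TGEMs against 46.7 and 38.0 in Scramble (log2 fold change 2.44 ± 0.28, adjusted p = 0.000295). Csf2rb2 (chr15:78282508-78305721, minus strand) measured 209 against 53.3 and 56.6 RPKM (1.91 ± 0.21, adjusted p = 0.000225). Csf3r (chr4:126024659-126044975, plus strand) was 6.40 times higher, at 18.7 against 2.53 and 3.31 RPKM (log2 fold change 2.33 ± 0.32, adjusted p = 0.000733). Csf1r went the other way, at 173 against 474 and 350 RPKM (-1.23 ± 0.30, adjusted p = 0.0105), and its change fell short of 2-fold once libraries were scaled to equal medians (-0.97, adjusted p = 0.0179).

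In that fit 5 of 7 tested genes were called, 4 higher and 1 lower. Over all 10929 tested genes 36.9% were called, so calls were common in this comparison. Il3ra, at 0 reads in Scramble, reached the filter only through TGEMs and so had to differ, and of the other 6 tested genes 4 were called. Csf2ra (chr19:61224402-61228418, minus strand), the GM-CSF-binding chain, was not called (1.16 ± 0.55, adjusted p = 0.119), and neither was Csf1 (-0.69 ± 0.51, adjusted p = 0.307). Csf2 and Csf3 had a mean below 1 RPKM and were not tested. In the Balb/cJ vehicle TGEM library, which was not in this comparison, the beta chains (142 and 109 RPKM), Csf3r (18.1) and Il3ra (35.9) were also above, and Csf1r (58.6) below, both Scramble libraries.

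Of the pathway genes 37 were tested in this comparison, with 12 higher and 2 lower. These are 37.8% of the list, near the 36.9% of all genes. Among the 12, Src and Fgr had means below 1 RPKM in iBMDMs and reached the filter only through TGEMs, so nothing is read from their calls. Il7r, a cytokine receptor chain related to the family, measured 256 RPKM against 11.0 and 16.3 in Scramble (4.16 ± 0.32, adjusted p = 4.62e-05). Src, a kinase recruited by CSF1R, measured 14.7 RPKM against 3 reads in Scramble, a ratio of read rates of 68.9 with an exact 95% interval of 23.5 to 335. Fgr, another Src-family kinase, rose by 3.00 ± 0.28 on the log2 scale (adjusted p = 0.000103), and Pim1 by 2.92 ± 0.24 (adjusted p = 5.5e-05). Cblb, a ubiquitin ligase, was higher by 2.62 ± 0.39 (adjusted p = 0.00106), and Zfp36 by 1.91 ± 0.27 (adjusted p = 0.00077).

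Marker genes were compared beside these receptor levels. All 7 macrophage markers were called in this comparison, 5 lower and 2 higher in TGEMs. Adgre1, which encodes F4/80, measured 60.7 RPKM against 669 and 744 in Scramble (-3.52 ± 0.24, adjusted p = 3e-05), and Itgam, Cd14, Lyz2 and Fcgr1 were lower by -2.18, -2.18, -1.97 and -1.82 on the log2 scale. Cd68 (2.33 ± 0.37, adjusted p = 0.0016) and Mertk (2.30 ± 0.23, adjusted p = 0.000134) were higher. Macrophage markers thus moved in both directions, as the receptor genes did, and their part in the receptor levels was not tested. Of 10 neutrophil markers, Ly6g, Camp, S100a9 and Retnlg were at 0 in all 13 libraries, and the list summed to 5.06 to 33.5 RPKM in TGEMs and 10.8 to 46.0 in iBMDMs. S100a8 and Mmp8 were the 2 markers that reached 1 RPKM in either kind of cell. Of 6 mast cell or basophil markers 5 were detected in TGEMs, summing to 2.01 to 13.6 RPKM, and 1 in iBMDMs, at 0.26 RPKM or less. B cell markers summed to 5.38 to 16.0 RPKM in TGEMs and at most 0.49 in iBMDMs, and dendritic cell markers to at most 2.35 and 0.58. T cell markers reached 1.94 RPKM and eosinophil markers 4.15 RPKM in TGEMs, against 0.30 and 6.15 in iBMDMs. The part of these cells in the levels of Il3ra and the beta chains was not tested. Cell origin, transformation, label date, the medium and the Xist signal all differ along with this comparison and cannot be told apart.

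Among iBMDMs, Csf3r was the member furthest from Scramble in the libraries labelled Atf3KO and JunDKO. It measured 2.53 and 3.31 RPKM in Scramble, 10.6 and 11.6 in the libraries labelled Atf3KO, 7.69 and 4.35 in those labelled JunKO and 14.1 and 12.5 in those labelled JunDKO. All 6 libraries of the targeted groups lay above both Scramble libraries. The log2 fold change over Scramble was 1.63 ± 0.27 in the libraries labelled Atf3KO (adjusted p = 0.00326) and 1.87 ± 0.27 in those labelled JunDKO (adjusted p = 0.00367), which met the call, and 0.81 ± 0.27 in those labelled JunKO (adjusted p = 0.455), which did not. The level did not reach the 16 RPKM that the study's own calls required. Neutrophil markers summed to 41.8 and 46.0 RPKM in Scramble, 22.1 and 42.2 with the Atf3KO label, 29.6 and 29.7 with the JunKO label and 10.8 and 11.1 with the JunDKO label. The sum was carried by S100a8 and Mmp8. S100a8 measured 34.8 and 33.2 RPKM in Scramble, 41.1 and 21.8 with the Atf3KO label and 0 in both JunDKO libraries. Mmp8 measured 11.0 and 8.62 RPKM in Scramble, 1.025 and 0.283 with the Atf3KO label and 11.1 and 10.8 with the JunDKO label. Its log2 fold change with the Atf3KO label was -2.74 ± 0.28 (limma-trend adjusted p = 0.000536). These 2 markers thus did not move together. The part of neutrophils in the Csf3r level was not tested. Of the 7 macrophage markers, Mertk was called beside Csf3r, at 7.04 and 8.27 RPKM in Scramble, 28.8 and 24.6 with the Atf3KO label (1.68 ± 0.20, adjusted p = 0.000916) and 36.1 and 36.8 with the JunDKO label (2.12 ± 0.20, adjusted p = 0.000509), and the other 6 were not called in either group. The JunDKO call was lost without JunDKO replicate 1 (1.79, adjusted p = 0.055), and the Atf3KO call held without each library in turn.

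Csf2ra differed most in the libraries labelled Atf3KO. It measured 105 and 62.4 RPKM in Scramble, 133 and 324 in the libraries labelled Atf3KO, 117 and 70.2 in those labelled JunKO and 77.1 and 52.9 in those labelled JunDKO. Both libraries labelled Atf3KO lay above all others, but they lay far apart, and the higher one, replicate 2, is the single iBMDM library with another label date. The log2 fold change over Scramble was 1.35 ± 0.45 (adjusted p = 0.0437). Without replicate 2, within 1 label date, it was 0.71 (adjusted p = 0.255), and the call was also lost without any other 1 library except Atf3KO replicate 1 (adjusted p = 0.0598 to 0.247). The targeted genes Jund and Jun also differed between these replicates. Jund measured 22.6 RPKM in replicate 1 and 83.0 in replicate 2 against 9.19 and 8.33 in Scramble. Jun measured 17.9 and 46.2 RPKM against 17.6 and 18.5 in Scramble. In TGEMs Csf2ra was highest and Jund lowest in the Balb/cJ vehicle library (266 and 65.0 RPKM). A link between these genes was not tested.

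GC content moved with the Csf2ra result. Fold changes of the libraries labelled Atf3KO correlated with it across all genes (rho = 0.49), and the Csf2ra model is 61.5% GC. With the GC trend of each library removed, the log2 fold change of Csf2ra over Scramble was 0.39 (adjusted p = 0.239), while that of Csf3r stayed at 1.30 (adjusted p = 0.00405). In the same setting Csf2rb2 passed the 2-fold limit, at -1.22 (adjusted p = 0.00101).

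In all, 2 of 6 tested genes were called in the libraries labelled Atf3KO, against 28.7% of all 10691 genes tested. In those labelled JunDKO 1 of 6 was called, against 8.77%. In those labelled JunKO 0 of 6 were called, against 0.281%, with 3 of the 6 and 842 genes in all at an unadjusted p under 0.05, and 0 by limma-voom. The first share lies near its background.

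**Figure D3:**
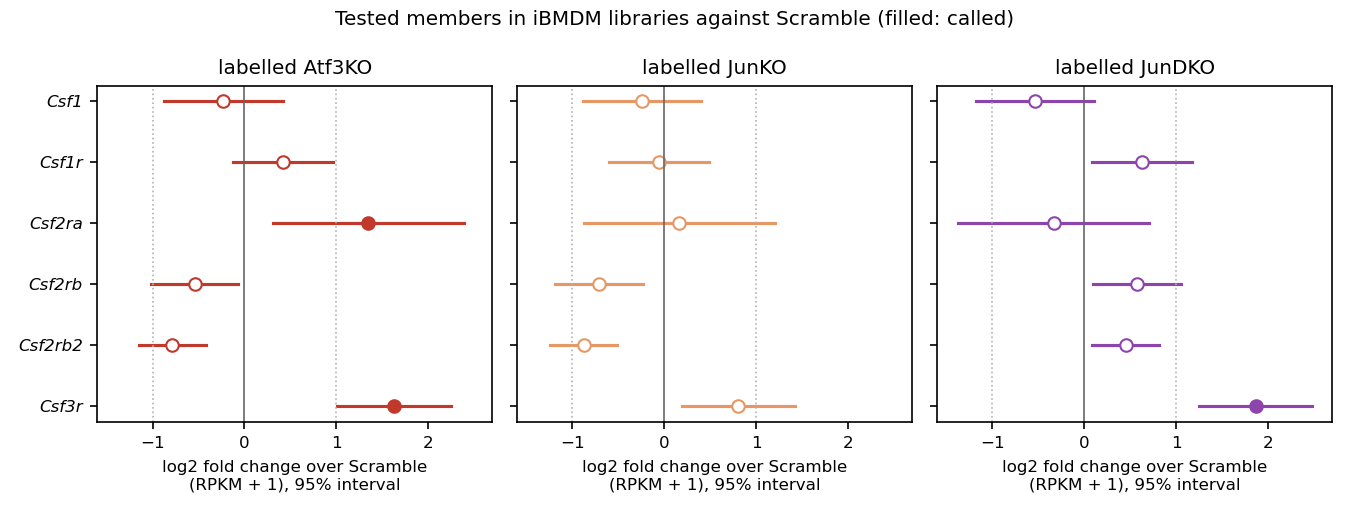
Log2 fold change over Scramble on the log2(RPKM + 1) scale, with 95% intervals from limma-trend, of the 6 tested genes in libraries labelled Atf3KO, JunKO and JunDKO (2 libraries each). Filled circles met the call and dotted lines mark 2-fold. Csf3r is filled for Atf3KO (1.63) and JunDKO (1.87), and the beta chain genes are below 0 for Atf3KO and JunKO and above 0 for JunDKO.

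The beta chain genes took opposite positions in the JunKO and JunDKO libraries. Csf2rb stood at 46.7 and 38.0 RPKM in Scramble, 27.8 and 29.5 in the libraries labelled Atf3KO, 29.5 and 21.9 in those labelled JunKO and 68.2 and 58.8 in those labelled JunDKO. Csf2rb2 measured 53.3 and 56.6 RPKM in Scramble, 30.6 and 32.2 in those labelled Atf3KO, 29.9 and 29.1 in those labelled JunKO and 78.3 and 73.0 in those labelled JunDKO. For both genes the JunDKO libraries were the highest of the iBMDMs and the Atf3KO and JunKO libraries lay below Scramble, with no overlap. The share of all genes without such overlap was not counted. No difference from Scramble met the call. For Csf2rb2 the log2 fold change was -0.79 ± 0.16 in the libraries labelled Atf3KO (adjusted p = 0.00676, under 2-fold), -0.88 ± 0.16 in those labelled JunKO (adjusted p = 0.105) and 0.45 ± 0.16 in those labelled JunDKO (adjusted p = 0.108). With the replicate block, in a fit of the Scramble, JunKO and JunDKO libraries alone, the adjusted p of Csf2rb2 was 0.0242 for JunKO and 0.0268 for JunDKO, both under 2-fold.

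Compared with each other, the groups did differ. JunDKO exceeded JunKO by 1.28 ± 0.21 on the log2 scale for Csf2rb (adjusted p = 0.00831) and by 1.33 ± 0.16 for Csf2rb2 (adjusted p = 0.00207). These 2 of 6 tested genes were called, against 6.31% of all genes, and Csf3r was near the limit at 1.06 ± 0.27 (adjusted p = 0.0502). With the replicate number as a block, in a fit of the Scramble, JunKO and JunDKO libraries alone, whose numbers go together, Csf3r was called as well (1.06, adjusted p = 0.0406). The Csf2rb call was lost without JunKO replicate 2, JunDKO replicate 1 or JunDKO replicate 2 (adjusted p = 0.0662, 0.0975 and 0.0638), and the Csf2rb2 call held without each library. The median of all genes was 0.23 in this comparison, and after scaling to equal medians the differences were 1.02 and 1.07.

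The libraries labelled Atf3KO differed from those labelled JunDKO in 3 of 6 genes, against 28.6% of all genes. Csf2rb was lower by -1.12 ± 0.21 (adjusted p = 0.00431), Csf2rb2 by -1.24 ± 0.16 (adjusted p = 0.000913), and Csf2ra was higher by 1.68 ± 0.45 (adjusted p = 0.0195). Scaling to equal medians put the Csf2rb difference below 2-fold (-0.95), and the GC correction did so for Csf2ra (0.85). The Csf2ra call was lost without Atf3KO replicate 2 (1.05, adjusted p = 0.119), JunDKO replicate 1 (1.95, adjusted p = 0.0595) or JunDKO replicate 2 (1.42, adjusted p = 0.141). Between the libraries labelled Atf3KO and JunKO 0 of 6 were called, against 24.1% of all genes, with Csf3r under 2-fold (0.82 ± 0.27, adjusted p = 0.0452). At an unadjusted p under 0.05 there were 2 of the 6 and 5146 genes in all, and limma-voom called 1, Csf2ra.

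Csf2rb and Csf2rb2 are neighbouring, closely similar genes, so their values are uncertain to the extent that reads fit both. Transcripts of 4764 and 3375 bases (GENCODE M21), the latter shorter than the 4398-base Csf2rb2 model behind the RPKM, were 91.0% identical over 3364 aligned bases, and 16.4% of the 50-base windows of Csf2rb and 23.3% of those of Csf2rb2 occurred unchanged in the other. How reads that fit both were counted is not given in the sources used here. The ratio of Csf2rb to Csf2rb2 was 0.672 to 0.988 in all 8 iBMDM libraries, 1.11 and 0.977 in C57Bl/6EiJ TGEMs and 1.19 to 1.32 in Balb/cJ TGEMs. The ratio of Csf2ra to the sum of both beta chains was 5.24 in Atf3KO replicate 2 and 2.28 in replicate 1, against 0.402 to 1.96 in the other 11 libraries.

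**Figure D4:**
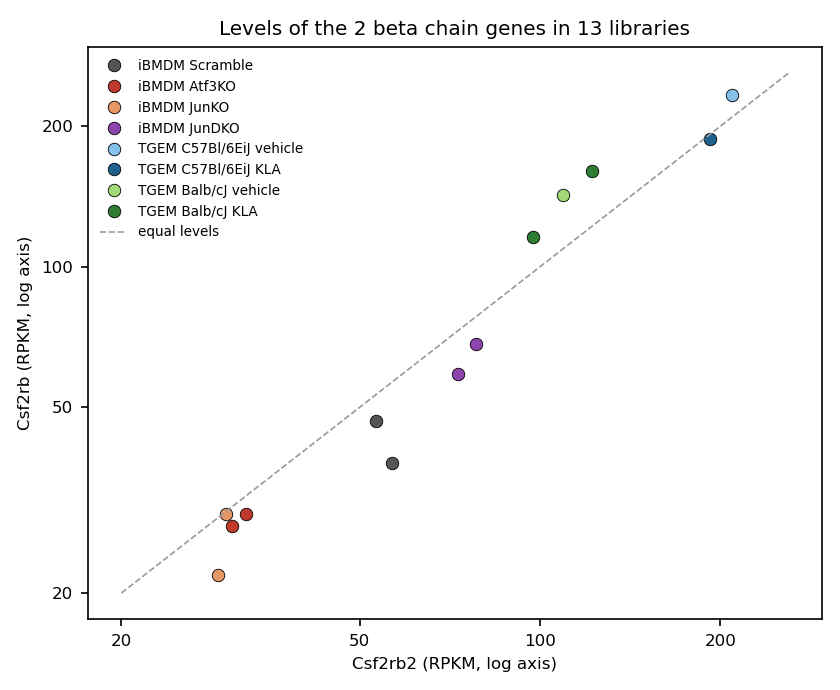
RPKM of Csf2rb against Csf2rb2 (both log axes) in 13 libraries, coloured by group, with the line of equal levels dashed. iBMDM libraries lie on the lower side of the line, at ratios of 0.672 to 0.988, and Balb/cJ TGEMs above it, at 1.19 to 1.32.

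Csf1r and Csf1 gave no call among iBMDMs. Csf1r stood at 513 and 582 RPKM in the libraries labelled Atf3KO, 463 and 328 in those labelled JunKO and 703 and 562 in those labelled JunDKO, against 474 and 350 in Scramble. The JunDKO libraries lay above Scramble without overlap, at a log2 fold change of 0.63 ± 0.24 (adjusted p = 0.132) beside a median of 0.23 over all genes. In the blocked fit of the 3 groups of 1 label date its adjusted p was 0.00241, still under 2-fold. Csf1 lay between 3.01 and 6.35 RPKM in all 8 libraries. Both JunDKO libraries (3.56 and 3.01) were below both Scramble libraries (log2 fold change -0.53 ± 0.28, adjusted p = 0.258) and both Atf3KO libraries, and the other groups overlapped. Csf2, Csf3 and Il3ra had means below 1 RPKM in iBMDMs and were not tested there.

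Of the pathway genes 35 were tested in iBMDMs. In the libraries labelled Atf3KO 3 were higher and 3 lower, 17.1% of the list against 28.7% of all genes. Stat5b, a transcription factor downstream of the GM-CSF receptor, was higher (1.23 ± 0.25, adjusted p = 0.00703), as were Dok1 (1.47 ± 0.36, adjusted p = 0.014) and Dok2 (1.29 ± 0.28, adjusted p = 0.00897), which encode adaptors that restrain kinase signalling. Jak2, the kinase bound to the beta chain, was lower (-1.32 ± 0.26, adjusted p = 0.0065), as was Cblb (-1.39 ± 0.35, adjusted p = 0.0154). Il7r had 0 reads in both libraries labelled Atf3KO and 11.0 and 16.3 RPKM in Scramble, which was at least 169-fold higher than 3 reads over the group allow, and at least 63.9-fold without Atf3KO replicate 2 and 105-fold without Atf3KO replicate 1. In the libraries labelled JunDKO 2 of the 35 were higher and 0 lower, namely Zfp36 (1.15 ± 0.20, adjusted p = 0.00795) and Gab2, an adaptor of PI3-kinase signalling (1.11 ± 0.19, adjusted p = 0.00743), which make 5.7% of the list against 8.77% of all genes. In those labelled JunKO 0 of the 35 were called.

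The remaining iBMDM comparisons gave pathway calls in 2 of 3 cases. Between JunDKO and JunKO 0 of 35 were called, with a median of 0.33 beside 0.23 over all genes. Against JunDKO, the libraries labelled Atf3KO had 2 higher and 6 lower, 22.9% of the list against 28.6% of all genes, led by Il7r at 0 reads, Cblb (-1.89 ± 0.35, adjusted p = 0.00424), Il2rg (1.46 ± 0.20, adjusted p = 0.00123), Jak2 (-1.27 ± 0.26, adjusted p = 0.00672), Osm (-1.26 ± 0.36, adjusted p = 0.0242) and Dok2 (1.16 ± 0.28, adjusted p = 0.0128). Against JunKO they had 2 higher, Stat5b (1.22 ± 0.25, adjusted p = 0.0089) and Dok1 (1.19 ± 0.36, adjusted p = 0.0342), and 3 lower, Il7r at 0 reads, Cblb (-1.97 ± 0.35, adjusted p = 0.00539) and Jak2 (-1.47 ± 0.26, adjusted p = 0.0054). These 5 are 14.3% of the list against 24.1% of all genes. These comparisons share the libraries labelled Atf3KO.

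Genes with the most similar pattern were listed by Pearson's r of log2(RPKM + 1) over the 13 libraries among 10928 other genes with a mean of at least 1 RPKM. The libraries fall into 2 kinds of cell, which sets much of each r. Csf2rb and Csf2rb2 were among each other's nearest genes (r = 0.978), with Mocos (0.984) and Gpnmb (0.977) beside Csf2rb, and Serinc5 (0.957) and Nedd4l (0.955) beside Csf2rb2. Il3ra was closest to Axl, Bcar3 and P2rx4 (each r = 0.99), of which Axl measured at most 0.135 RPKM in iBMDMs and 2.77 to 6.43 in TGEMs. Csf1r was closest to Heatr6 (0.988), Herc2 (0.987) and L3mbtl2 (0.984), all higher in every iBMDM library than in any TGEM library. Csf3r was closest to Pla2g15 (0.951), Slc38a7 (0.95) and Man2a2 (0.93). Csf2ra was closest to Znhit1 (0.944), Egln2 (0.941) and Selplg (0.94). Csf1 was closest to Dusp14 (0.95), Tnip1 (0.914) and Brd2 (0.898), and Dusp14 ranged from 0 to 10.2 RPKM in TGEMs. Csf2 and Csf3 had a mean below 1 RPKM over the 13 libraries and were left out.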

How the data were processed

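PolyA RNA-seq libraries were used, 13 of 17 samples in the series. RPKM values are the authors' own as deposited. Per the labels and the study's methods, STAR with default options placed the reads on mm10 (for Balb/cJ on a genome of that strain, with positions shifted back to mm10), and the authors computed RPKM over exons with HOMER, genes condensed. Versions and strand handling are not given in the sources used here. Samples were grouped by their titles and genotype labels, with replicate numbers of Balb/cJ KLA libraries in accession order. The study describes iBMDM libraries as replicate experiments. For TGEMs nothing states separate cultures or animals, so whether those libraries are independent is not known. The spread behind their p-values comes from the 2 Balb/cJ KLA libraries, which carry different label dates. Any difference between strains in the response to KLA also enters it. Deviations of same-numbered libraries correlated at 0.185 to 0.225 among Scramble, JunKO and JunDKO, which share 1 label date, and at -0.215 to -0.12 with Atf3KO, whose replicate 2 has another. A block on the number within those 3 groups was added after seeing the data.

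Whole reads were recovered from the steps of RPKM times exonic length, and 100% of values up to 50 reads lay within 0.05 of a whole number. Testing covered genes whose mean reached 1 RPKM across the fitted libraries, with limma-trend on log2(RPKM + 1), a scale that understates changes of low genes. The iBMDM groups were fitted over 8 libraries (4 residual degrees of freedom), TGEMs by treatment and strain over 5 (2 residual degrees of freedom), and TGEMs against Scramble over 13 (5 residual degrees of freedom). P-values were two-sided, Benjamini-Hochberg adjusted over all tested genes of each of 9 comparisons. No 2 libraries held identical values. Differences between replicates, as chi-square over degrees of freedom, reached 27.25 for Atf3KO and 75.22 for Balb/cJ KLA, pairs with different label dates. For Scramble, JunKO and JunDKO they lay between 3.54 and 3.78. The iBMDM fit pools the spread of its groups for each gene. Each SE for Atf3KO therefore also rests on those groups with smaller differences, and may be too small. The study's edgeR test on raw reads was not repeated. Groups without reads were bounded at 3 reads over the group. Overlap of values between groups is described for named genes only, and its share over all genes was not counted. Exact 95% intervals of read-rate ratios cover counting error only. The GC correction removed a spline with 5 degrees of freedom from each library, with GC content known for 99.0% of models. The fits were tested on simulated data. Promoter sequences and starts are those of RefSeq, GRCm38.p6.

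The members, the pathway and marker lists and the tests were chosen with earlier results of these data known. Named genes are the 9 members, up to 6 called pathway genes per comparison by size of fold change, the 3 genes closest in pattern to each member and the targeted genes. Axl, Dusp14, marker genes and the sex-linked genes were named with values after those were seen. Alternatives covered pseudocounts of 0.1 and 5, filters, call limits, scaling, limma-voom, array weights, GC content, the replicate block and leaving out each library. Software was R 4.3.3, limma 3.58.1, scipy 1.17.1, matplotlib 3.10.9, pandas 2.3.3, numpy 2.4.6 and Python 3.11.15.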

Additional observations from a re-analysis of the deposited data

Results flagged for a closer look

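Csf2ra and Il3ra stood out because KLA and vehicle values differed in opposite directions in the 2 strains. For Csf2ra the log2 ratio of KLA to vehicle, on the log2(RPKM + 1) scale, was 0.075 in C57Bl/6EiJ TGEMs and -1.02 and -1.34 in the 2 Balb/cJ KLA libraries, both against the single Balb/cJ vehicle library. For Il3ra it was -0.11 in C57Bl/6EiJ and 0.20 and 0.11 in Balb/cJ, whose vehicle library held 116 reads of the gene. Each of these Il3ra ratios is smaller than the SE of its fitted change with KLA (0.25), so its opposite signs may be error alone. The difference between the strains was not tested, and each strain has 1 vehicle library, so its error enters both Balb/cJ values.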

How the results depend on the processing

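Of 15 member and comparison pairs that were called, all 15 kept their direction in every alternative run and 3 kept the call in all of them: Csf2rb, Csf3r and Il3ra in C57Bl/6EiJ vehicle TGEMs against Scramble. In that comparison the single TGEM library could not be left out, and Il3ra had 0 reads in Scramble, so these 3 were not tested as hard as the others. Another 5 pairs gained a call in some alternative: Csf2rb2 in Atf3KO against Scramble, Csf3r in JunDKO and Atf3KO against JunKO, and Csf2ra in Atf3KO against JunKO and in TGEMs against Scramble. Of 1347 alternative fold changes of the members, 1309 had the direction of the reported value. Number of members called is given here by comparison. For Atf3KO against Scramble it fell from 2 to 1 without the filter on low values, with at least 16 RPKM in either group, at equal library medians, with array weights, with only the groups compared and with the replicate block, and to 0 at a log2 fold change of at least 2, and it rose to 3 with no fold limit. For JunDKO against Scramble it fell from 1 to 0 at 16 RPKM and at a log2 fold change of 2. At the latter limit it also fell from 2 to 0 for JunDKO against JunKO, from 3 to 0 for Atf3KO against JunDKO, from 2 to 0 for the strains and from 5 to 3 for TGEMs against Scramble. For Atf3KO against JunKO it rose from 0 to 1 with no fold limit and with limma-voom. For the strains it fell from 2 to 1 with a pseudocount of 5 or array weights and to 0 without the filter or with the GC correction. Atf3KO against JunDKO also lost Csf2rb at equal medians and Csf2ra with the GC correction. TGEMs against Scramble lost Csf1r at equal medians and gained Csf2ra with limma-voom. JunDKO against JunKO gained Csf3r with a filter at 5 RPKM, limma-voom, array weights or the GC correction. With 1 library left out in turn, in each case with the lone library of a group assumed to vary like the others, the number was 1 to 2 for Atf3KO, 0 for JunKO and 0 to 1 for JunDKO against Scramble, 1 to 3 for JunDKO against JunKO, 2 to 3 and 0 to 1 for Atf3KO against JunDKO and JunKO, 0 for KLA, 0 to 1 for the strains and 5 for TGEMs against Scramble. The causes of these changes were not tested, except that stricter limits admit fewer genes by construction. Over all 4 groups the numbers did not pair the libraries, and the replicate block alone changed no other number of members called. Within the 3 groups of 1 label date they did, and the block, chosen after seeing the data, gave 0 members for JunKO and 1 for JunDKO against Scramble and 3 in place of 2 for JunDKO against JunKO, and over all genes it called 78 for JunKO, where the same 3 groups gave 24 without it. Within the Balb/cJ libraries of 1 label date, the log2 ratios of KLA to vehicle were 1.84, 3.23 and 2.28 for Csf1, Csf2 and Csf3. The 1553296 reads of the shallowest library limit what can be said of Csf2, Csf3 and Il3ra in iBMDMs.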
